A study of Mus musculus with 20 samples.

Results

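The NRF2 pathway and its oxidant scavengers were followed through 10 genes: Nfe2l2, Keap1, Nqo1, Hmox1, Gclc, Gclm, Srxn1, Sod1, Sod2 and Cat. They were taken by symbol from a table of 39253 genes, and all 10 were among the 17810 genes that passed a filter on low counts. The follicles came from female mice of the outbred CD-1 stock that were 40 days old when exposure began and 75 days old when the ovaries were taken, in diestrus. For 35 days, 5 mice received iodoacetic acid, a disinfection by-product, at 10 mg/L in the drinking water, 5 mice received it at 500 mg/L, and 10 controls had water without it. The 500 mg/L mice shared experiment 1 with control replicates 6 to 10, and the 10 mg/L mice shared experiment 2, a month apart, with control replicates 1 to 5. Each library was made from 30 to 40 antral follicles of 1 mouse, 220 to 400 µm across, pooled before RNA extraction, so every value below is 1 animal and an average over all cells of its follicles. Estimated counts per library summed to between 39.9 M and 67.5 M (M for mega), and expression is given in CPM, which are counts scaled to an equal library total. SE below is the standard error of a log2 change.

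NRF2, encoded by Nfe2l2, is a transcription factor that switches on genes for glutathione synthesis, quinone reduction and haem breakdown. Its inhibitor KEAP1 holds it in the cytoplasm and marks it for destruction, and oxidants or alkylating agents that modify KEAP1 cysteines let NRF2 accumulate, bind antioxidant response elements with small MAF proteins and raise its targets. Most of that control acts on the NRF2 protein, so Nfe2l2 mRNA need not change when the pathway is switched on. In ovarian follicles, superoxide dismutases, catalase and the glutathione system remove the reactive oxygen that steroid synthesis and metabolism release.

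None of the 10 genes passed an adjusted p of 0.05 at either dose, so no change of a single gene was detected (edgeR's quasi-likelihood test, Benjamini-Hochberg over 17810 genes). A shift of the 10 genes as a set was not tested. At 10 mg/L, 0 of 10 were called, beside 0.00561% of all tested genes, and the smallest adjusted p among the 10 was 0.789. At 500 mg/L, 0 of 10 were called, beside 0.0112% of all tested genes, with a smallest adjusted p of 0.560. Before adjustment, Nqo1 and Gclm had a p under 0.05 at 10 mg/L, 2 of 10 beside 6.22% of all genes. Nqo1 and Nfe2l2 did at 500 mg/L, 2 of 10 beside 8.69%. All 4 of these changes were downward, as were 3.14% and 4.18% of all genes by that mark at 10 mg/L and 500 mg/L. The median log2 change of the 10 genes was -0.08 at 10 mg/L and -0.09 at 500 mg/L, against 0.00 over all tested genes at each dose. For no gene did the exposed mice and the controls form groups that did not overlap, beside 0.0955% of all genes at 10 mg/L and 0.331% at 500 mg/L.

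Against the controls of the same experiment the count was again 0 of 10 at 10 mg/L and 0 of 10 at 500 mg/L, where 0% of all genes passed in each case. Before adjustment 0 of 10 had a p under 0.05 in either of these comparisons, beside 6.45% of all genes at 10 mg/L and 5.19% at 500 mg/L. In these comparisons the direction was downward for 7 of 10 genes at 10 mg/L, beside 49.9% of all genes. At 500 mg/L it was downward for 9 of 10, beside 49.5%. The median log2 changes of the 10 genes were -0.03 and -0.08, against 0.00 over all tested genes at each dose. With both doses pooled against water and experiment as a term, 0 of 10 passed, beside 0.0112% of all genes. In that comparison Nqo1 and Nfe2l2 had an unadjusted p under 0.05, 2 of 10 beside 6.81% of all genes, and both were lower, beside 3.35% of all genes. The 500 mg/L mice set against the 10 mg/L mice, from different experiments, gave 0 of 10, beside 0.0112%. The test of whether the effects of the doses differ, each against its own controls, gave 0 of 10, beside 0%. The plot of changes shows how wide the intervals were for each gene.

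**Figure D1:**
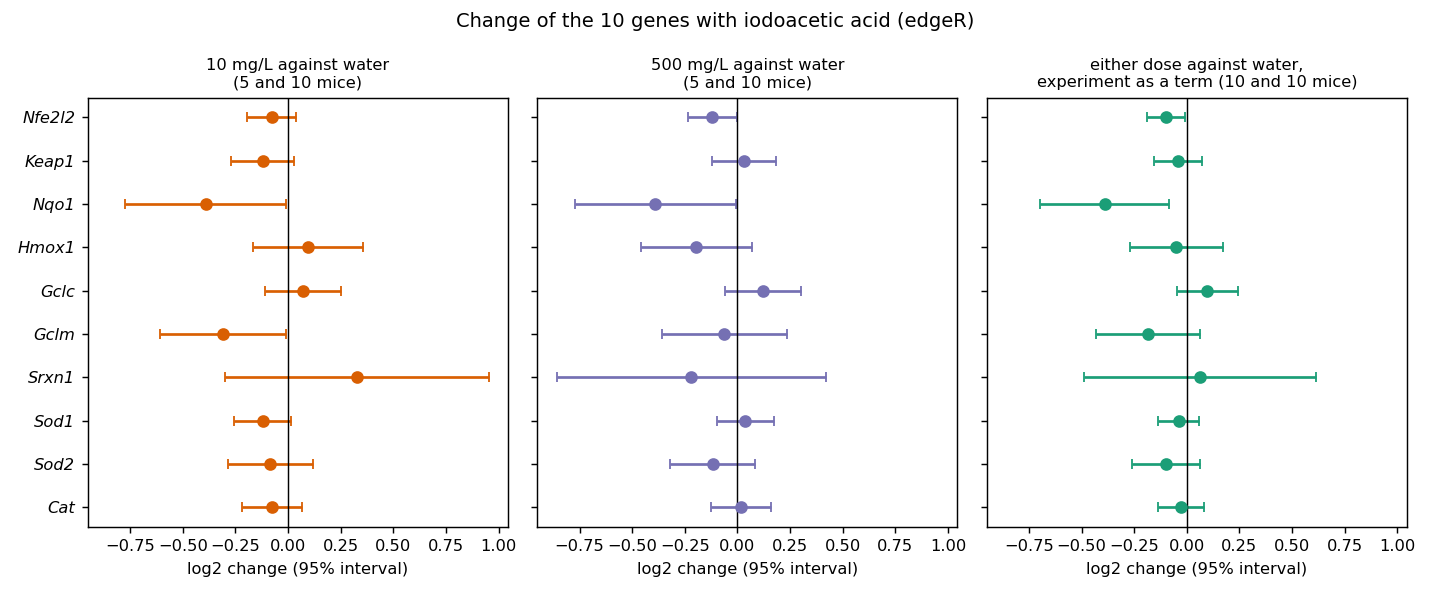
Log2 change of each gene (point) with its 95% interval (line) from edgeR, for 10 mg/L against all controls, 500 mg/L against all controls, and either dose against water with experiment as a term. Nqo1 lies at -0.39 in all 3 panels, and Srxn1 has the widest intervals.

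Known NRF2 binding sites follow the antioxidant response element, whose core is often written TGACNNNGC. RefSeq promoter windows of GRCm38.p6, from 250 bases before to 50 bases after each gene's start, were found for 8 of the 10 genes, all but Hmox1 and Gclc. This core or its reverse complement GCNNNGTCA was searched on both strands. It occurred in 4 of the 8 windows (Nfe2l2, Gclm, Srxn1 and Sod1) and in 12.4% of 32851 windows genome-wide. A match is a description of letters and not evidence of binding. The stretches around 3 of the matches are shown because they belong to the regulator itself, a target and a scavenger; the capitals mark the core, and each is written 5′ to 3′ on the gene's strand.
Nfe2l2, minus strand, chr2:75704870-75704913: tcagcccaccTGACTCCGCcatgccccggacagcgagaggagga
Gclm, plus strand, chr3:122245398-122245456: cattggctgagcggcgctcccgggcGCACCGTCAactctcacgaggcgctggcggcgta
Sod1, plus strand, chr16:90220681-90220739: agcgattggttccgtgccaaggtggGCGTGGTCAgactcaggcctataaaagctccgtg
The match began at -240 in Nfe2l2, at -134 in Gclm and at -56 in Sod1, counted from the first base of the gene, and at 29 in Srxn1, inside the transcribed part. The Nfe2l2 match read on the gene's own strand and the others on the opposite strand. Against own controls these 4 genes had log2 changes of -0.11 (Nfe2l2), -0.29 (Gclm), 0.49 (Srxn1) and -0.04 (Sod1) at 10 mg/L. At 500 mg/L the log2 changes of Nfe2l2, Gclm, Srxn1 and Sod1 against own controls were -0.09, -0.08, -0.36 and -0.04, and none of the 8 passed adjustment.

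The expression level in unexposed follicles differed widely between the genes once divided by transcript length. Sod1, the cytosolic copper-zinc superoxide dismutase, was highest at 490 ± 39.5 CPM per kilobase (SD, n = 10). Nfe2l2 had 45.5 ± 2.22 and Cat, the peroxisomal catalase, 44.9 ± 2.92 CPM per kilobase, and these ranges overlapped. Gclc, the catalytic subunit of glutamate-cysteine ligase, had 28.3 ± 2.80, Hmox1, the inducible haem oxygenase, 22.6 ± 3.64, and Keap1 21.3 ± 1.496 CPM per kilobase. Each of these 3 overlapped its neighbour in the order. Sod2, the mitochondrial manganese superoxide dismutase, followed at 15.2 ± 1.57 CPM per kilobase, below every Keap1 value and above every Gclm value.

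Gclm, the modifier subunit that makes Gclc more active, had 8.65 ± 1.45, and Srxn1, the sulfiredoxin that restores over-oxidised peroxiredoxins, 6.60 ± 3.33 CPM per kilobase, with overlapping ranges. Nqo1, the quinone reductase often used as a readout of NRF2, was lowest at 2.26 ± 0.413 CPM per kilobase, below every Srxn1 value. The order of the means differed at 10 mg/L in that Srxn1, at 8.27 ± 2.30, stood above Gclm, at 6.98 ± 0.870 CPM per kilobase (SD, n = 5 each). In the 500 mg/L group Cat, at 45.5 ± 5.17, stood above Nfe2l2, at 41.9 ± 3.17, and Keap1, at 21.8 ± 2.34, stood above Hmox1, at 19.8 ± 2.14 CPM per kilobase (SD, n = 5 each). The unexposed controls of experiment 1 had the same order of means for these pairs. There Cat had 46.7 and Nfe2l2 44.4, and Keap1 had 22.4 and Hmox1 22.2 CPM per kilobase.

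**Figure D2:**
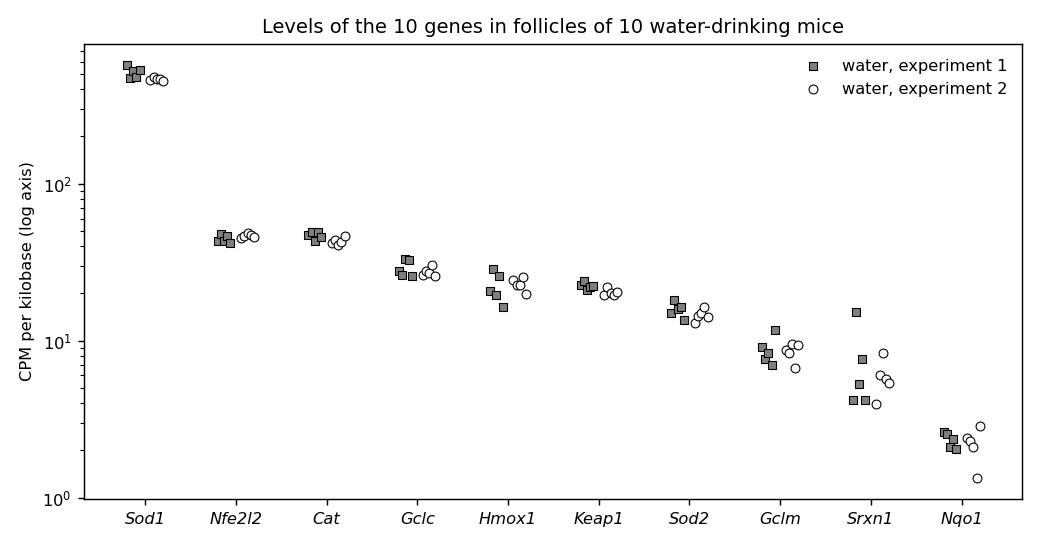
Level of each gene in CPM per kilobase of transcript (log axis) in the 10 control mice, filled squares for experiment 1 and open circles for experiment 2, ordered by mean. Sod1 stands apart at the top and Nqo1 at the bottom, and neighbours such as Nfe2l2 and Cat overlap.

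The regulator was the least variable of the 10 genes. The biological coefficient of variation of Nfe2l2, the spread between mice of a group beyond counting error, was 8.44%, against a median of 17.96% over all tested genes. Among the 200 genes nearest to it in expression level the median was 10.2%. Nfe2l2 had 111, 91.3, 101, 106 and 108 CPM in replicates 1 to 5 at 500 mg/L. The controls spanned 104 to 120.2 CPM with a median of 114 CPM. All 5 mice at 500 mg/L were below the control median and 2 of them were below every control, but the groups overlapped.

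The log2 change of Nfe2l2 at 500 mg/L was -0.12 (SE 0.06; edgeR p = 0.0435, adjusted p = 0.560), and against the controls of experiment 1 alone it was -0.09 (SE 0.06; edgeR p = 0.192, adjusted p = 0.963). In the 10 mg/L mice the 5 values were 121, 109.7, 98.5, 103 and 101 CPM, 4 of them below the control median. Their log2 change from all controls was -0.08 (SE 0.06; edgeR adjusted p = 0.871). Within experiment 2 the 10 mg/L change was -0.11 (SE 0.06; edgeR p = 0.0951, adjusted p = 0.797). There 4 of 5 mice lay below every own control, while replicate 1, at 121 CPM, lay above all controls. At 500 mg/L 3 of 5 mice lay below the median of own controls and 2 of 5 below every own control. For both doses together the log2 change was -0.10 (SE 0.04; edgeR p = 0.0353, adjusted p = 0.720). Without 500 mg/L replicate 2, the lowest of all mice, the unadjusted p for 500 mg/L was 0.186.

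Keap1, the inhibitor, averaged 70.9 ± 7.94 CPM at 10 mg/L (SD, n = 5) and 77.1 ± 5.41 CPM in all controls (SD, n = 10), which is -0.12 on the log2 scale (SE 0.07; edgeR adjusted p = 0.831). All 5 mice at 10 mg/L lay below the control median of 77.7 CPM. The control sets of both experiments also had different means: Keap1 averaged 81.0 ± 3.95 CPM in controls of experiment 1 and 73.3 ± 3.66 CPM in controls of experiment 2 (SD, n = 5 each). Against the experiment 2 controls the log2 change at 10 mg/L was -0.05 (SE 0.08). In mice at 500 mg/L Keap1 averaged 78.8 ± 8.46 CPM (SD, n = 5), which is 0.03 on the log2 scale (SE 0.07; edgeR adjusted p = 0.944).

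Among the 5 NRF2 targets of the 10 genes, Nqo1 had the lowest expression and the most negative log2 change at both doses, without passing adjustment. At 10 mg/L Nqo1 had 3.05, 1.66, 2.61, 3.26 and 2.77 CPM in replicates 1 to 5. Mice at 500 mg/L had 3.27, 1.82, 2.27, 3.32 and 2.71 CPM. The controls spanned 2.06 to 4.42 CPM with a median of 3.61 CPM. All 10 exposed mice were below that median, and replicate 2 was the lowest at each dose. The groups overlapped, and control replicate 4, at 2.06 CPM, lay below every exposed mouse except replicate 2 of each dose. Control replicates 10, 8 and 3, at 3.18, 3.24 and 3.25 CPM, also lay below some exposed mice. These were 10 mg/L replicate 4 and 500 mg/L replicates 1 and 4.

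The mean of Nqo1 was 2.67 ± 0.618 CPM at 10 mg/L and 2.68 ± 0.646 CPM at 500 mg/L (SD, n = 5 each), against 3.51 ± 0.642 CPM in controls (SD, n = 10). On the log2 scale the 10 mg/L group differed by -0.39 (SE 0.18; edgeR p = 0.0449, adjusted p = 0.790) and the 500 mg/L group by -0.39 (SE 0.18; edgeR p = 0.0458, adjusted p = 0.565). Against own controls the log2 changes were -0.35 (SE 0.21; edgeR adjusted p = 0.808) at 10 mg/L and -0.43 (SE 0.21; edgeR adjusted p = 0.960) at 500 mg/L. For both doses with experiment as a term, the log2 change was -0.39 with a 95% interval from -0.70 to -0.08 (edgeR p = 0.0150, adjusted p = 0.637). That unadjusted p stayed under 0.05 in 20 of 20 fits that left out 1 mouse, ranging from 0.00313 to 0.0342, and the p ranked 418 among 17810 genes. At the single doses, leaving out replicate 2 of the dose gave an unadjusted p of 0.167 at 10 mg/L and 0.153 at 500 mg/L.

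Gclm stood below the control median in every mouse at 10 mg/L and in 2 of 5 mice at 500 mg/L. It had 42.1, 30.6, 41.6, 39.1 and 41.7 CPM in replicates 1 to 5 at 10 mg/L, against 37.5 to 65.7 CPM with a median of 47.8 CPM in controls. Replicate 2 was below every control, and the other mice overlapped the lower controls. The log2 change was -0.31 (SE 0.14; edgeR p = 0.0445, adjusted p = 0.789), and against the controls of experiment 2 it was -0.29 (SE 0.17; edgeR p = 0.105, adjusted p = 0.797). Without 10 mg/L replicate 2 the unadjusted p was 0.146.

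The 500 mg/L mice split for Gclm, with 56.7, 55.9 and 53.3 CPM in replicates 1 to 3 and 32.3 and 33.5 CPM in replicates 4 and 5. The log2 change was -0.06 (SE 0.14; edgeR adjusted p = 0.944). The difference between the effects of the doses, each against its own controls, was 0.20 on the log2 scale (SE 0.24; edgeR adjusted p = 0.987), which does not show that the doses differ.

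Gclc, which carries the catalytic site of the same enzyme, leaned the other way. It averaged 102 ± 8.57 CPM at 10 mg/L (SD, n = 5) and 97.0 ± 9.57 CPM in controls (SD, n = 10), which is 0.07 on the log2 scale (SE 0.09; edgeR adjusted p = 0.930). Its mean at 500 mg/L was 106 ± 17.2 CPM (SD, n = 5), which is 0.12 on the log2 scale (SE 0.09; edgeR adjusted p = 0.733). The mice high in Gclc at 500 mg/L, replicates 4 and 5 at 127 and 119 CPM, were the 2 mice low in Gclm.

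The ratio of Gclm to Gclc CPM per mouse, examined after these values had been seen, was 0.278 to 0.454 with a median of 0.390 at 10 mg/L, and 0.349 to 0.739 with a median of 0.511 in controls. The mean log2 ratio differed by -0.37 (two-sided exact permutation p = 0.0539, adjusted over 8 ratio tests 0.245). At 500 mg/L the ratio spanned 0.253 to 0.654, wider than in the controls on the low side, and the mean log2 ratio differed by -0.20 from all controls (exact permutation p = 0.418, adjusted 0.627). Neither difference passed the threshold.

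Hmox1, which breaks down haem, had 38.5, 37.2, 34.1, 51.5 and 28.2 CPM at 10 mg/L, against 25.5 to 44.96 CPM with a median of 35.5 CPM in controls. The group differed from the controls by 0.10 on the log2 scale (SE 0.13; edgeR adjusted p = 0.936). Without replicate 4, the highest mouse, that difference was -0.04. The 500 mg/L mice had 32.6, 26.8, 28.5, 31.7 and 35.3 CPM, all below the control median and none below every control. The log2 change was -0.20 (SE 0.13; edgeR adjusted p = 0.699). The mice at 500 mg/L set against the mice at 10 mg/L differed by -0.29 on the log2 scale (SE 0.15; edgeR p = 0.0602, adjusted p = 0.522), and by -0.16 without 10 mg/L replicate 4.

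Srxn1 was the most variable gene of the 10, with a biological coefficient of variation of 38.4%, above 84.6% of all tested genes. It had 19.1, 17.3, 31.8, 28.5 and 19.6 CPM in replicates 1 to 5 at 10 mg/L. In mice at 500 mg/L it had 30.9, 11.3, 12.5, 14.6 and 10.5 CPM. The controls spanned 11.2 to 42.5 CPM with a median of 15.5 CPM. All 5 mice at 10 mg/L were above the control median and 4 of 5 at 500 mg/L were below it, with 500 mg/L replicate 1 and control replicate 7 far above the rest of their groups.

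The log2 change of Srxn1 was 0.33 at 10 mg/L (SE 0.30; edgeR adjusted p = 0.902) and -0.22 at 500 mg/L (SE 0.31; edgeR adjusted p = 0.891). Against own controls it was 0.49 at 10 mg/L (SE 0.35) and -0.36 at 500 mg/L (SE 0.35). The difference between those effects was -0.85 (SE 0.50; edgeR p = 0.104, adjusted p = 0.941). Single mice set its size: it was -1.25 without 500 mg/L replicate 1 (unadjusted p = 0.0122) and -0.40 without control replicate 7 (unadjusted p = 0.347). The 500 mg/L change against all controls was -0.61 without 500 mg/L replicate 1 and 0.01 without control replicate 7. Without control replicate 7 the change at 10 mg/L against all controls was 0.55, at an unadjusted p of 0.0363.

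The scavengers proper had log2 changes no larger than 0.12 in size against all controls. Sod1 averaged 289 ± 25.2 CPM at 10 mg/L (SD, n = 5) and 314 ± 25.3 CPM in controls (SD, n = 10), which is -0.12 on the log2 scale (SE 0.07; edgeR adjusted p = 0.819). Its 500 mg/L mean was 322 ± 22.7 CPM (SD, n = 5), which is 0.04 on the log2 scale (SE 0.07; edgeR adjusted p = 0.920). The means of the control sets lay apart for this gene: the controls of experiment 1 averaged 331 ± 25.99 CPM and those of experiment 2 297 ± 7.36 CPM (SD, n = 5 each). That is 0.16 on the log2 scale (SE 0.07; edgeR p = 0.0337, adjusted p = 0.462). Sod1 was the 1 gene of 10 with an unadjusted p under 0.05 in that comparison, beside 9.78% of all genes, and 0 of 10 passed adjustment, beside 0.157%. The 28 genes behind that share were 3 to 14 without any 1 of control replicates 2, 3, 5, 6, 7, 8 and 9, and 50 without 10 mg/L replicate 2. Against own controls its change was -0.04 at 10 mg/L (SE 0.07) and -0.04 at 500 mg/L (SE 0.07), so the 2 estimates differed less there than against all controls.

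Sod2 averaged 84.0 ± 15.7 CPM at 10 mg/L (SD, n = 5) and 89.0 ± 9.19 CPM in controls (SD, n = 10), which is -0.08 on the log2 scale (SE 0.10; edgeR adjusted p = 0.926). Mice at 500 mg/L averaged 82.0 ± 7.61 CPM (SD, n = 5), which is -0.12 on the log2 scale (SE 0.10; edgeR adjusted p = 0.777). Against own controls that change was -0.18 (SE 0.11; edgeR adjusted p = 0.963), with 5 of 5 mice below the median of the experiment 1 controls. Cat averaged 111 ± 10.1 CPM at 10 mg/L (SD, n = 5) and 117 ± 7.64 CPM in controls (SD, n = 10), which is -0.08 on the log2 scale (SE 0.07; edgeR adjusted p = 0.893). The 500 mg/L mice averaged 119 ± 13.51 CPM (SD, n = 5), which is 0.02 on the log2 scale (SE 0.07; edgeR adjusted p = 0.971).

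The intervals state how large a change these data could still hold. For 500 mg/L the 95% interval of the fold change ran from 0.918 to 1.12 for Cat, from 0.934 to 1.13 for Sod1 and from 0.921 to 1.13 for Keap1. It ran from 0.551 to 1.34 for Srxn1, from 0.780 to 1.18 for Gclm and from 0.727 to 1.05 for Hmox1. For 10 mg/L the interval for Hmox1 ran from 0.891 to 1.28 and that for Srxn1 from 0.812 to 1.94. The interval for Srxn1 was the widest of the 10 at each dose.

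**Figure D3:**
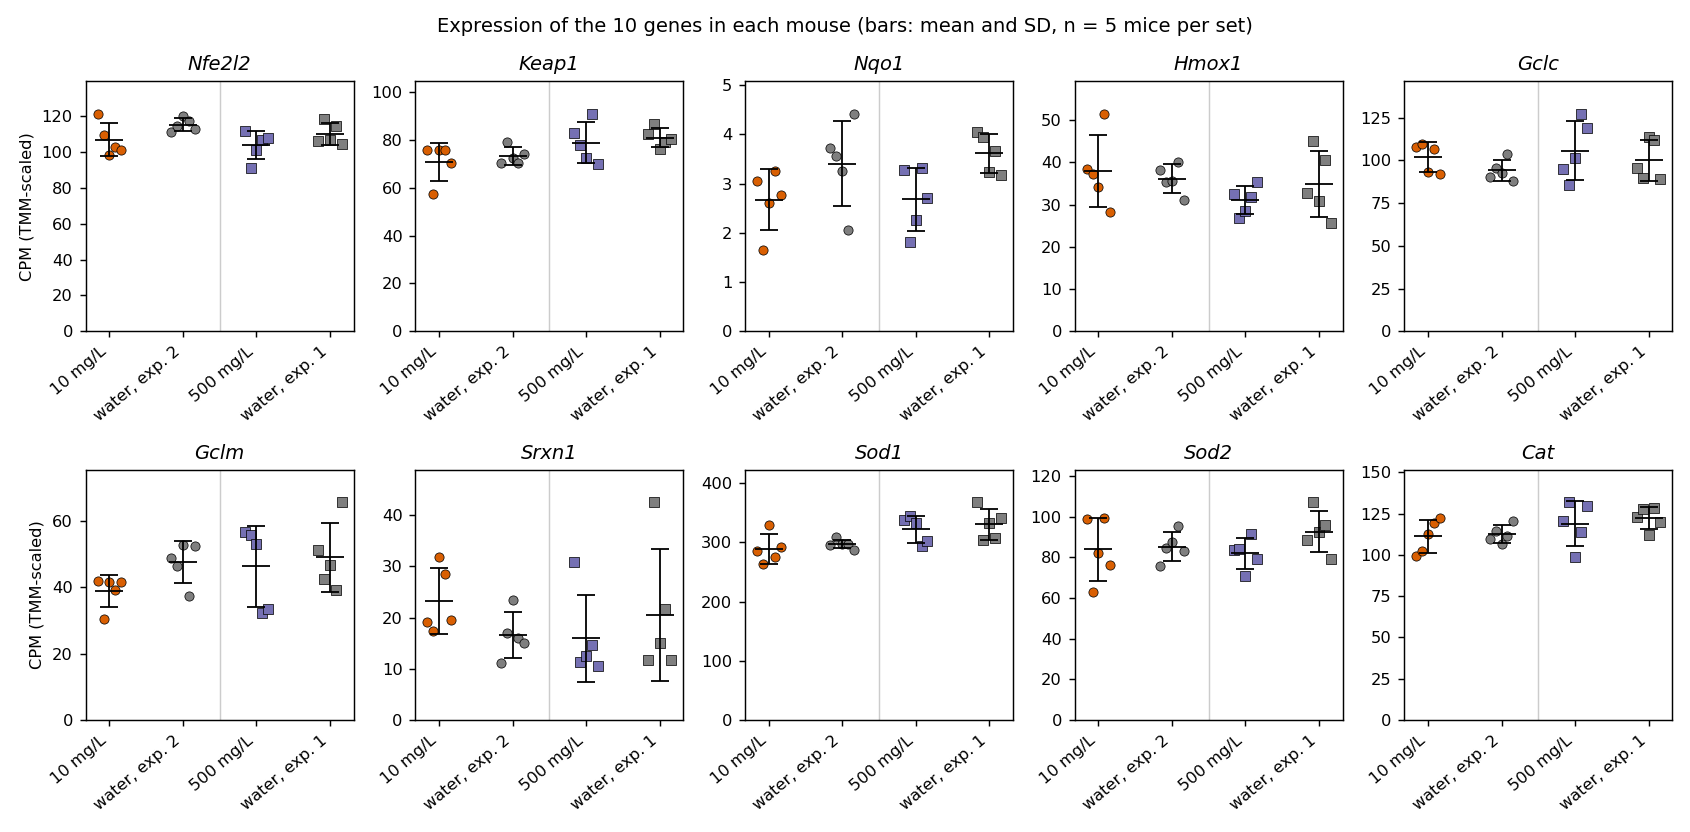
CPM of each gene (linear axes from 0) in every mouse, with each dose beside the controls of its own experiment; points are mice, and bars give the mean and SD of 5 mice. Nqo1 is below the control median in all 10 exposed mice, Gclm forms a high and a low set at 500 mg/L, and Srxn1 has 1 high mouse at 500 mg/L and 1 among the experiment 1 controls.

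The authors' deposited table gives the same 10 genes with its own tests. None of the 10 (0 of 10) in the authors' deposited table had an adjusted p under 0.05 at 10 mg/L, beside 0.611% of its 18169 genes, and 0 of 10 at 500 mg/L, beside 1.26%. The smallest of these values in the authors' deposited table was 0.0823, for Gclm at 10 mg/L, with a signed fold change of -1.22. For Nqo1 the authors' deposited table lists signed fold changes of -1.34 at 10 mg/L and -1.31 at 500 mg/L, with adjusted p of 0.214 and 0.249. For Srxn1 it lists -1.47 for 500 mg/L over 10 mg/L with an adjusted p of 0.0893 (authors' deposited table).

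A further 4 lists covered the rest of the pathway, and no gene of any of them passed adjustment in any comparison. Of 15 partners and regulators of NRF2, all were tested, and 0 were called at either dose. At 500 mg/L, 3 were lower and 1 higher at an unadjusted p under 0.05, beside 8.69% of all genes in either direction and 4.18% lower, among them Sqstm1, the p62 adaptor that binds KEAP1, at 383 ± 39.5 CPM against 432 ± 46.4 CPM in controls (SD, n = 5 and 10). Its log2 change was -0.17 (edgeR p = 0.0392, adjusted p = 0.550). The other 2 were Dpp9 (log2 change -0.17, edgeR adjusted p = 0.542) and Dpp3, which can bind KEAP1 (log2 change -0.11, edgeR adjusted p = 0.556). Gsk3b, a kinase that promotes NRF2 degradation, was the higher one, at 167 ± 6.19 CPM against 158 ± 5.52 CPM in controls (log2 change 0.08, edgeR p = 0.0477, adjusted p = 0.570). Against own controls the 3 lower genes lost that mark, with unadjusted p of 0.228 for Sqstm1, 0.172 for Dpp9 and 0.131 for Dpp3, and Gsk3b kept it, at 0.0328. At 10 mg/L the smallest p belonged to Nfe2l3, a relative of Nfe2l2, at 0.388 ± 0.135 CPM against 0.641 ± 0.363 CPM in controls (log2 change -0.72, edgeR p = 0.0652, adjusted p = 0.810). Against own controls its log2 change was -1.12 (SE 0.37; unadjusted p = 0.00682), which did not pass edgeR's adjusted threshold. Bach1, Nfe2l1 and Btrc followed, with log2 changes from -0.08 to -0.06 and edgeR adjusted p from 0.885 to 0.912.

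Of 36 other NRF2 targets, 35 were tested and 0 were called. Their signs were 18 positive and 17 negative at 10 mg/L, with a median log2 change of 0.01, and 12 positive and 23 negative at 500 mg/L, with a median of -0.05. Against own controls they were 12 positive and 23 negative at 10 mg/L, with a median of -0.05, beside 49.9% negative among all genes. At 500 mg/L against own controls they were 15 positive and 20 negative, with a median of -0.04, beside 49.5%. Slc48a1, a haem transporter, averaged 56.9 ± 3.88 CPM at 10 mg/L and 57.2 ± 1.25 CPM at 500 mg/L (SD, n = 5 each), against 62.7 ± 4.04 CPM in controls (SD, n = 10). Its log2 changes were -0.14 (edgeR adjusted p = 0.734) and -0.13 (edgeR adjusted p = 0.465). Gstp1, a glutathione transferase that conjugates electrophiles, averaged 119 ± 25.4 CPM at 500 mg/L (SD, n = 5) against 166 ± 45.9 CPM in controls (SD, n = 10), with a log2 change of -0.48 (edgeR adjusted p = 0.520). Txn1, the cytosolic thioredoxin, and Prdx1, a peroxiredoxin, had log2 changes of -0.21 (SE 0.07; unadjusted p = 0.0111) and -0.21 (SE 0.08; unadjusted p = 0.0255) against the controls of experiment 1, and neither passed edgeR's adjusted threshold. In the 10 mg/L comparison G6pdx, Gsr and Ugdh followed Slc48a1, with log2 changes of 0.11, -0.16 and -0.10 and edgeR adjusted p from 0.819 to 0.834.

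Of 32 other scavengers, all were tested and 0 were called. At 500 mg/L 7 were positive and 25 negative, with a median log2 change of -0.06, and against own controls 6 were positive and 26 negative, with a median of -0.05. At 10 mg/L the signs were 15 positive and 17 negative. The gene of this list with the smallest p at 500 mg/L had a positive change: Oxr1, a protein that protects against oxidative damage, averaged 72.0 ± 5.79 CPM against 63.2 ± 3.31 CPM in controls (SD, n = 5 and 10). Its log2 change was 0.19 (edgeR p = 0.00401, adjusted p = 0.341). The peroxiredoxins Prdx3, Prdx5 and Prdx2 came next, with log2 changes of -0.17, -0.08 and -0.08 and edgeR adjusted p from 0.522 to 0.631. In the 10 mg/L comparison Gss, glutathione synthetase, had the smallest p, with 20.3 ± 4.35 CPM against 17.4 ± 2.85 CPM in controls (log2 change 0.23, edgeR adjusted p = 0.819), ahead of Park7, Prdx5 and Glrx3 (adjusted p from 0.831 to 0.851). Of 16 oxidant-producing enzymes, 13 were tested and 0 were called. Xdh, xanthine dehydrogenase, had a log2 change of -0.53 at 500 mg/L (edgeR adjusted p = 0.612) and 0.29 at 10 mg/L (edgeR adjusted p = 0.902). Nox4, an NADPH oxidase, had a log2 change of 0.31 at 500 mg/L (edgeR adjusted p = 0.635) and 0.21 at 10 mg/L (edgeR adjusted p = 0.883). The neutrophil oxidase subunits Ncf4 and Ncf1 were at -0.47 and -0.31 at 500 mg/L, and Duox1, a dual oxidase, at -0.35 at 10 mg/L, with edgeR adjusted p from 0.700 to 0.898. Against own controls Ncf4 at 500 mg/L was at -0.75 (unadjusted p = 0.0304), and at 10 mg/L Duox1 was at -0.65 (unadjusted p = 0.0643) and Xdh at 0.54 (unadjusted p = 0.0957). Xdh at 500 mg/L was at -0.74 against own controls (unadjusted p = 0.0263), and none of these passed edgeR's adjusted threshold.

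Across the 20 mice the 10 genes did not vary as a block. On log2 CPM centred on the mean of each dose in each experiment, 28 of 45 pairs correlated positively, with a median Pearson r of 0.16. All values of a mouse come from 1 library. Nfe2l2 and its 5 targets had r between -0.38 and 0.51, and none passed adjustment over the 45 pairs. In experiment 1 alone r with Nfe2l2 was 0.81 for Nqo1, 0.81 for Hmox1, 0.73 for Srxn1, 0.38 for Gclc and -0.53 for Gclm. In experiment 2 alone it was -0.17, 0.18, -0.21, 0.63 and -0.12, in the same order. The difference between the experiments was not tested.

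The 1 pair past an adjusted p of 0.05 joined the subunits of glutamate-cysteine ligase, in opposite directions. Gclc and Gclm had r = -0.79 (permutation p = 0.00099, adjusted p = 0.0446) and rho = -0.73 (permutation p = 0.00249, adjusted p = 0.104), so the rank correlation did not pass. It was -0.81 in experiment 1 and -0.72 in experiment 2. Without the 2 mice farthest from the median of Gclc it was -0.71. The relation held its sign in 20 of 20 fits without 1 mouse, between -0.87 and -0.73, but passed adjustment in 9 of them. The next pairs were Keap1 with Sod2 (r = 0.70, permutation p = 0.00273, adjusted p = 0.0614) and Gclm with Sod1 (r = 0.67, permutation p = 0.0059, adjusted p = 0.0885).

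The genes nearest to each of the 10 in their pattern over the 20 mice, by the same r, are given as a description. They were Ube3a for Nfe2l2 (r = 0.84), Ate1 for Keap1 (r = 0.92), Hsd17b11 for Nqo1 (r = 0.85), Lipe for Hmox1 (r = 0.86) and Wdr6 for Gclc (r = 0.85). For the others they were Nadk2 for Gclm (r = 0.93), Fdx1 for Srxn1 (r = 0.88), Fam234b for Sod1 (r = 0.88), Selenot for Sod2 (r = 0.89) and Ctsc for Cat (r = 0.83).

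Marker genes of follicle cells were compared with the 10 genes after the values above had been seen. In every group the means of 6 of 6 granulosa, 5 of 5 theca and 5 of 5 oocyte markers were at least 1 CPM, and so were 4 of 4 luteal, 5 of 5 endothelial and 4 of 4 stromal markers. It was 5 of 6 for macrophage and leukocyte markers and 4 of 5 for red cell markers in every group. In such bulk libraries, fewer cells of a type and less RNA per cell cannot be told apart. The summed theca markers had a median of 3850 CPM at 10 mg/L (1900.1 to 6365), 2204 CPM at 500 mg/L (1823 to 4317) and 2546 CPM in controls (1105 to 6967). The summed luteal markers had a median of 1243 CPM at 10 mg/L (564 to 2931), 860.2 CPM at 500 mg/L (493.1 to 1093) and 539.9 CPM in controls (294 to 3539). Against own controls the median log2 change of the 4 luteal markers was 1.75 at 10 mg/L, with 4 of 4 positive, and -0.65 at 500 mg/L, with 0 of 4 positive; controls of experiment 1 stood 1.47 above controls of experiment 2 on the same scale. The 5 theca markers had median log2 changes of 0.13 at 10 mg/L and 0.32 at 500 mg/L against own controls, with 3 of 5 positive at each dose. For the macrophage and leukocyte markers these medians were 0.25, with 5 of 6 positive, and -0.38, with 0 of 6 positive. For the red cell markers they were 0.40 and 1.11, with 5 of 5 positive at each dose. The summed endothelial markers had a median of 256 CPM at 10 mg/L (189.97 to 270.2), 215 CPM at 500 mg/L (162 to 237.5) and 203 CPM in controls (151 to 233). At 10 mg/L 5 of 5 endothelial markers were higher at an unadjusted p under 0.05 against own controls, beside 6.45% of all genes in either direction, with a median log2 change of 0.32. Against all controls 4 of 5 were, beside 6.22%. No marker of these lists passed edgeR's adjusted threshold, and the part of the endothelial markers in the values of the 10 genes was not tested beyond their correlations, of which none passed adjustment. Control replicate 7 was highest of all mice for the theca and luteal sums and for Srxn1. It was also highest of all for the macrophage and leukocyte sum, at 82.2 CPM, and for the stroma sum, at 1239 CPM.

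Srxn1 followed the theca sum across mice. Of 80 relations between the 10 genes and 8 marker sums, 2 passed adjustment. Srxn1 with the theca sum had r = 0.80 (permutation p = 9e-05, adjusted p = 0.0072) and rho = 0.78 (permutation p = 0.00014, adjusted p = 0.0112). It was 0.92 in experiment 1 and 0.75 in experiment 2, and 0.70 without the 2 mice farthest from the median of the theca sum. Srxn1 with the luteal sum had r = 0.73 (permutation p = 0.00096, adjusted p = 0.0384) and rho = 0.71 (permutation p = 0.00207, adjusted p = 0.0828), and 0.55 without the 2 extreme mice. Without control replicate 7, r was 0.73 with the theca sum and 0.58 with the luteal sum. The part of these marker sums in the Srxn1 values of the dose groups was not tested.

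The single genes behind the theca sum did not follow Srxn1 alike. Cyp11a1, the side-chain cleavage enzyme that starts steroid synthesis in theca, granulosa and luteal cells, had r = 0.77 (permutation p = 0.00029, adjusted over 9 single markers 0.00261). Star, which delivers cholesterol to that enzyme, had r = 0.65 (permutation p = 0.00496, adjusted 0.0112). Cyp17a1, which makes androgens in theca cells, had r = 0.38 (permutation p = 0.0648, adjusted 0.0833), and Insl3, a peptide hormone of theca cells, had r = 0.13 (permutation p = 0.508, adjusted 0.508). Lhcgr, the remaining marker of the theca list, had r = 0.40 (permutation p = 0.0766, adjusted 0.0862). Cyp17a1, Insl3 and Lhcgr thus did not pass. All 4 luteal markers passed, with r from 0.52 for Akr1c18 to 0.70 for Ptgfr, the prostaglandin F receptor (adjusted p = 0.0182 and 0.00567 by permutation). The 9 markers were examined because the theca and luteal sums had passed by r in the same mice. The adjustment over 9 leaves that choice out, so these p-values break down the sums and are not separate support. Cyp11a1 supplied the largest part of the theca sum, at 2208 ± 1008 CPM at 10 mg/L, 1397 ± 581 CPM at 500 mg/L and 1566 ± 994 CPM in controls (SD, n = 5, 5 and 10).

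**Figure D4:**
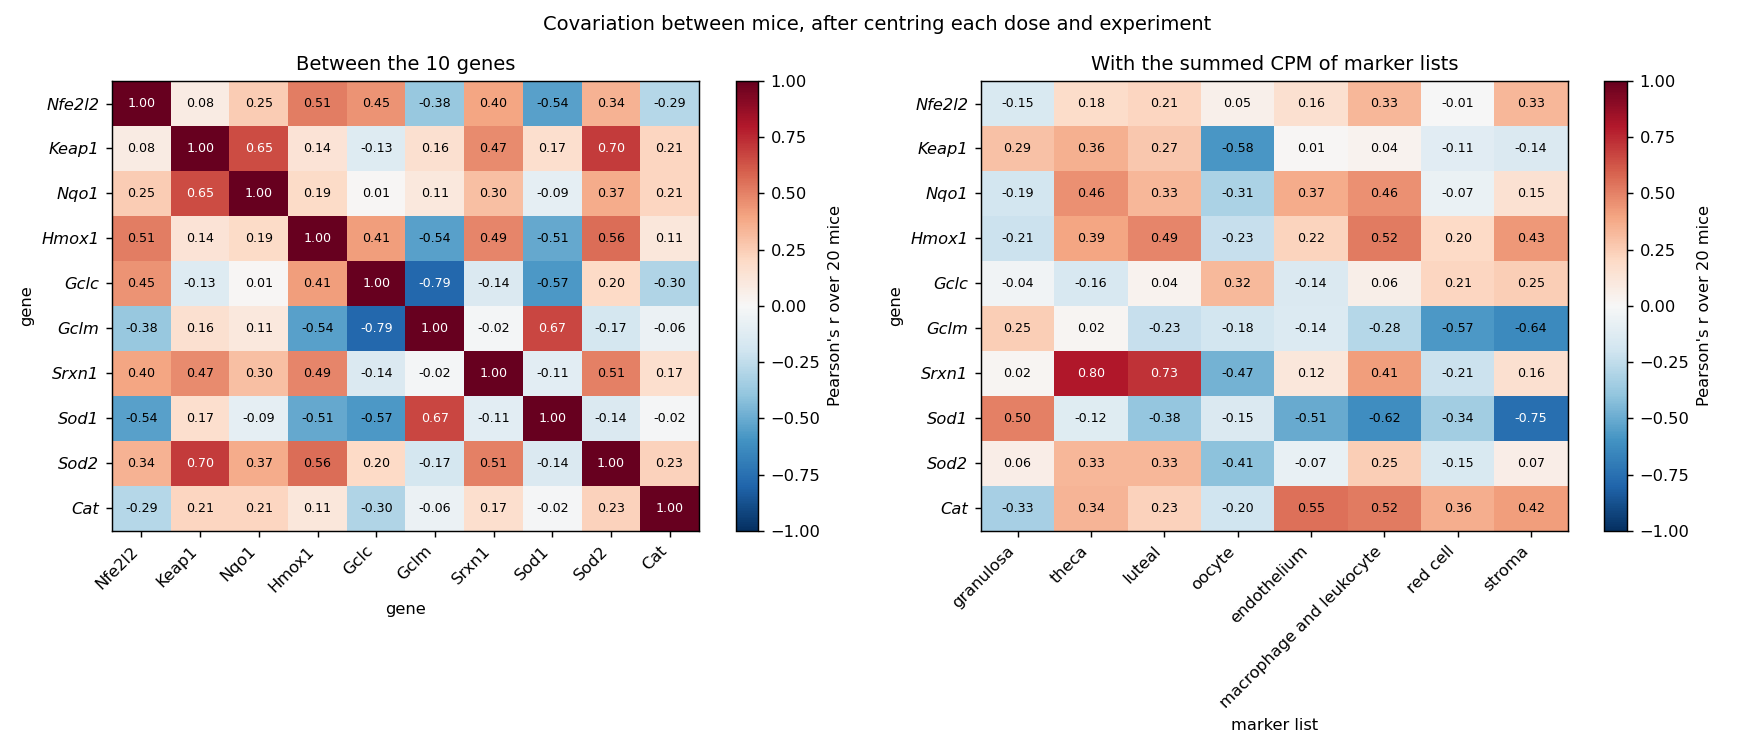
Pearson's r over 20 mice between the 10 genes (left) and between each gene and the summed CPM of 8 marker lists (right), on log2 CPM centred within each dose and experiment. Gclc with Gclm (-0.79) and Srxn1 with the theca markers (0.80) are the values described in the text.

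**Figure D5:**
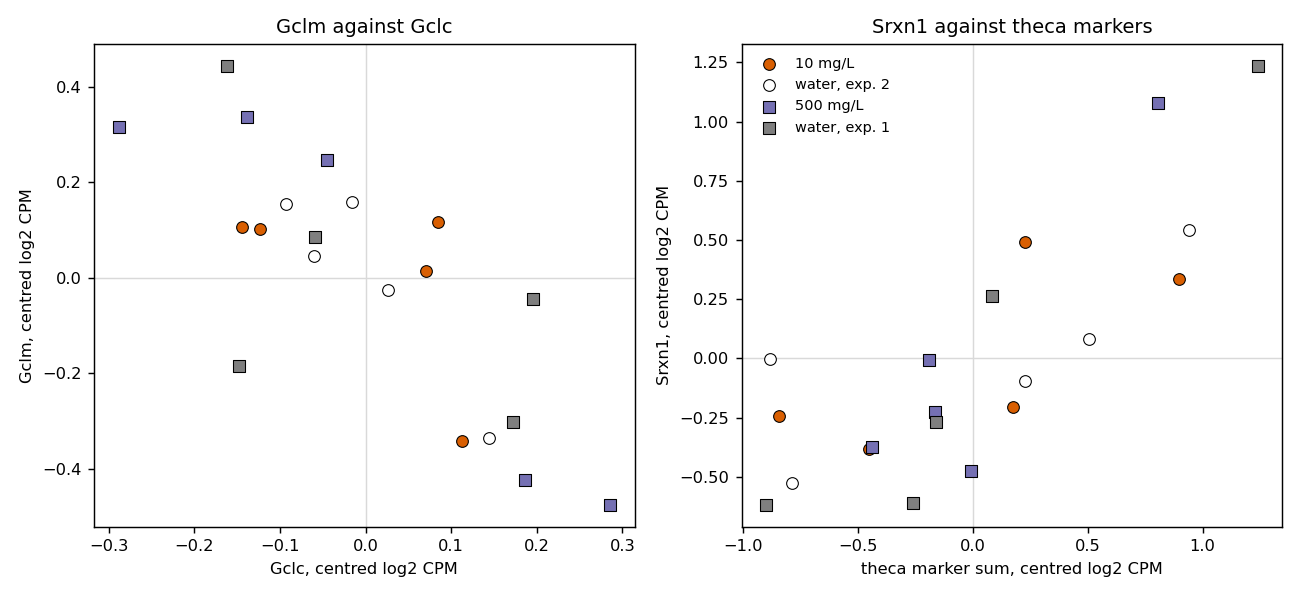
Centred log2 CPM of Gclm against Gclc (left) and of Srxn1 against the summed theca markers (right); each point is 1 of 20 mice, with symbols for dose and experiment. Gclm is lower where Gclc is higher, and Srxn1 is higher where the theca sum is higher.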

How the data were processed

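Messenger RNA of antral follicles from 20 mice was sequenced with a stranded kit. The authors deposited estimated counts per gene, made with Salmon 1.2.0 on GRCm39, per the submitters' processing notes; the annotation release is not given in the sources used here. Estimated counts were rounded to whole numbers, and library totals ran from 39.9 M to 67.5 M (M for mega). The authors' deposited table of comparisons holds their p-values, adjusted p-values, mean log2 expression, and scores that are F statistics or signed linear fold changes, where a fall is minus the inverse ratio. It is quoted only where named.

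Genes passing edgeR's filterByExpr (17810) were fitted with edgeR 4.0.16 in R 4.3.3 (TMM scaling, robust quasi-likelihood test, Benjamini-Hochberg over all tested genes, threshold 0.05). A mean per group over all 20 mice gave the comparisons with all controls, as the submitters combined them. A mean per dose and experiment gave those with own controls. CPM use TMM-scaled library sizes. SE is that of the log2 change, taken as its size divided by the square root of the edgeR F statistic. The edgeR p-values test a difference of means against the spread between mice. Comparisons with all controls and between the doses also hold any difference between the experiments. Levels per kilobase use the longest principal transcript of GENCODE M21, a different annotation from the authors'. Correlations used log2 CPM (prior count 2) centred by dose and experiment, and 100000 two-sided permutations within those sets. No 2 libraries agreed within sampling noise: chi-square per gene over 65 pairs of the same group ran from 22.0 to 151.

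The 10 genes and all lists were chosen with earlier results of these data known. The named genes were the 10, up to 4 of each list with the smallest p at each dose, and the gene nearest to each of the 10. One of these is not reported here. The ratios and marker correlations were added after the values had been seen. Alternatives were DESeq2 1.42.0, limma 3.58.1 (voom and trend), other scalings and filters, only the groups compared, a replicate block, and fits without 1 mouse. The test was checked on simulated data.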

Additional observations from a re-analysis of the deposited data

Results flagged for a closer look

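Among 30 groups of values (10 genes in 3 groups), 4 held a mouse far from the rest by Dixon's criterion, which chance gives in about 1 in 20 groups. Srxn1 had 30.9 CPM in replicate 1 at 500 mg/L, against 14.6 CPM in the next mouse. Srxn1 had 42.5 CPM in control replicate 7, against 23.5 CPM in the next control. Gclm had 30.6 CPM in replicate 2 at 10 mg/L, the lowest of that dose by a wide gap. Nqo1 had 2.06 CPM in control replicate 4, below the other 9 controls, which began at 3.18 CPM. Replicate 2 at 10 mg/L was also the lowest of its group for Keap1, Nqo1, Srxn1, Sod1 and Sod2.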

How the results depend on the processing

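None of the 10 genes was called in 223 of 223 combinations of comparison and alternative setting, and the smallest adjusted p in any of them was 0.324. DESeq2 gave Nqo1 no adjusted p at 500 mg/L against all controls or between the doses. Of 2230 log2 changes of single genes under 29 alternatives, 0 moved by over 1 SD between mice and 93 changed sign, all of genes that were not called. That SD is a wide bar, from 0.09 for Nfe2l2 to 0.57 for Srxn1 on the log2 scale. Srxn1 at 500 mg/L against own controls went from -0.36 to 0.09 without control replicate 7 and stayed within it. The 0 therefore does not show that the estimates were stable. In 49 of 80 combinations of gene and comparison no alternative changed the sign.

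The count of all genes called was higher with DESeq2 on 29320 genes than with edgeR on the 17810 that passed its filter. DESeq2 called 8 at 10 mg/L, 84 at 500 mg/L, 118 for 500 mg/L against 10 mg/L, 193 between the control sets, 31 at 10 mg/L and 5 at 500 mg/L against own controls, 15 for the difference of effects and 16 for either dose, against 1, 2, 2, 28, 0, 0, 0 and 2 with edgeR. With edgeR on the same 29320 genes, without a filter on low counts, these were 0 at 10 mg/L, 2 at 500 mg/L and 0 between the doses. They were 11 between the control sets, 0 against own controls at each dose, 0 for the difference of effects and 2 for either dose. Dropping the filter thus raised the edgeR count in none of the comparisons. With at least 1 CPM in 5 mice edgeR called 48 between the control sets. With upper-quartile factors it called 0 at 10 mg/L, 3 at 500 mg/L and 0 between the doses. Limma-voom and limma-trend called 0 at each dose and between doses, and 1 for either dose. With only the groups compared, 3 were called at 500 mg/L and 0 between the doses. Leaving out 1 mouse at a time gave 0 to 1 at 10 mg/L, 0 to 3 at 500 mg/L, 0 to 4 between the doses, 1 to 3 for either dose and 3 to 50 between the control sets.

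Shared replicate numbers did not pair the mice: deviations of same-numbered mice correlated from -0.13 to 0.23. With a replicate block 0 of the 10 genes was called in each of 4 comparisons, and 0 of all genes at 10 mg/L, 17 at 500 mg/L, 8 between the doses and 0 at 10 mg/L against own controls. No block could be fitted for 500 mg/L against own controls, whose numbers are not shared.

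The count of correlated gene pairs, 1 as reported, was 0 by Spearman, 2 with raw library totals, 4 when centred on experiment alone, and 0 to 3 when each mouse was left out in turn. The cause was not tested. In controls of experiment 1 alone, 6 of 10 genes kept their place in the order of levels. Nqo1, at about 3 CPM, has the fewest reads of the 10 genes, and 5 mice per dose limit what a change under its interval could show.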
